A study of Homo sapiens with 6 samples.

Results

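The proteasome genes described here are the rows of the count table whose symbol is exactly PSMA, PSMB, PSMC, PSMD, PSME or PSMG followed by digits. The rule picked 47 of the 58735 rows and used no measured value, but it was chosen with earlier results of these data known. By their known roles they comprise 14 core subunits, 3 immunoproteasome subunits, 2 tissue-specific core subunits, 17 subunits of the regulatory cap, 7 assembly chaperones and 4 alternative activators. A further 38 rows with related symbols, which are pseudogenes, antisense transcripts and PSMC3IP, stayed out, and 11 of these held any count.

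The counts come from RD cells, an established embryonal rhabdomyosarcoma line that carries the muscle lineage factors MYOD1 and MYOG. Cells were transduced with lentivirus for a scrambled shRNA (n = 3) or for TAK1 shRNA (n = 3), and poly(A) mRNA was sequenced. All 6 samples share the line, the transduction and the pLKO.1-mCherry-Puro backbone, so by the labels the groups differ in the hairpin. Since only TAK1 shRNA # 1 was sequenced, the knockdown and that construct cannot be told apart, and nothing in the labels says that replicates are separate cultures, so p-values measure the spread between these samples, which may be technical.

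The proteasome degrades proteins that carry ubiquitin chains. Its core is a stack of alpha and beta rings, in which the outer alpha rings gate the entrance and a few beta subunits cut the substrate, while the cap binds the ubiquitin chain, removes it and feeds the unfolded protein into the core. Cells exposed to interferon replace the catalytic beta subunits with the immunoproteasome subunits, whose products feed MHC class I presentation. When proteasome activity falls short, the transcription factor NFE2L1 is released from the endoplasmic reticulum and drives the subunit genes together. In skeletal muscle the complex also breaks down contractile protein during wasting.

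Total counts were between 28839898 and 34469323 per sample, and the spread between replicates gave a common biological coefficient of variation of 5.67%. Of the 47 members, 45 passed the expression filter and were tested among 15935 genes. The targeted gene MAP3K7, which encodes TAK1, reached 77.9, 76.5 and 77.6 CPM (counts scaled to the normalized library size) with scrambled shRNA and 30.5, 33.6 and 29.9 CPM with TAK1 shRNA, a log2 fold change of -1.30 (SE 0.061, edgeR adjusted p = 4.45e-14). The muscle markers MYOD1, MYOG and DES were expressed in every sample and MYF5 was at 0 in all 6, with a summed level of the 4 genes from 741 to 747 CPM in controls and from 836 to 904 CPM in TAK1 knockdown cells. MYOD1 and MYOG were upregulated, at log2 fold changes of 0.37 and 0.27, and the part of this shift in the proteasome results was not tested. Markers of leukocytes, epithelium and endothelium (PTPRC, EPCAM, PECAM1, CDH5) summed to at most 0.485 CPM in any sample. In bulk RNA, fewer cells of a kind and less RNA per cell cannot be told apart.

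Proteasome mRNA levels were lower in TAK1 knockdown RD cells across the core and the cap. A gene was called downregulated or upregulated at an adjusted p under 0.05 (edgeR quasi-likelihood test, Benjamini-Hochberg over all genes tested) with a log2 fold change of 0.25 or more in size. By this rule 22 of the 45 members (48.9%) were downregulated, against 11.3% of all genes tested, and 1 member was upregulated, against 11.8%. With no fold threshold, at the adjusted p alone, 33 members (73.3%) were lower, against 17.2% of all genes, and 2 were higher, against 16.1%. The 3 TAK1 shRNA samples all lay below the 3 control samples for 33 members, which held for 22.2% of all genes, and all above them for 1 member, PSMB8, which held for 21.6% of all genes. The median log2 fold change of the members was -0.25, a level 15.7% lower, against 0.02 over all genes tested.

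Most proteasome genes are highly expressed, and highly expressed genes pass a test more readily. Among the 4787 genes whose mean reached 50 CPM, 16.3% were downregulated and 31.3% were lower at the adjusted p alone. The 32 members at that level held 19 downregulated genes (59.4%) and 29 that were lower at the adjusted p alone (90.6%). Their median log2 fold change was -0.29, against -0.03 for all genes of that level. The changes were small in size. With a fold threshold of 0.5 in place of 0.25, 0 members passed in edgeR's test, in contrast to 680 downregulated genes overall.

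**Figure D1:**
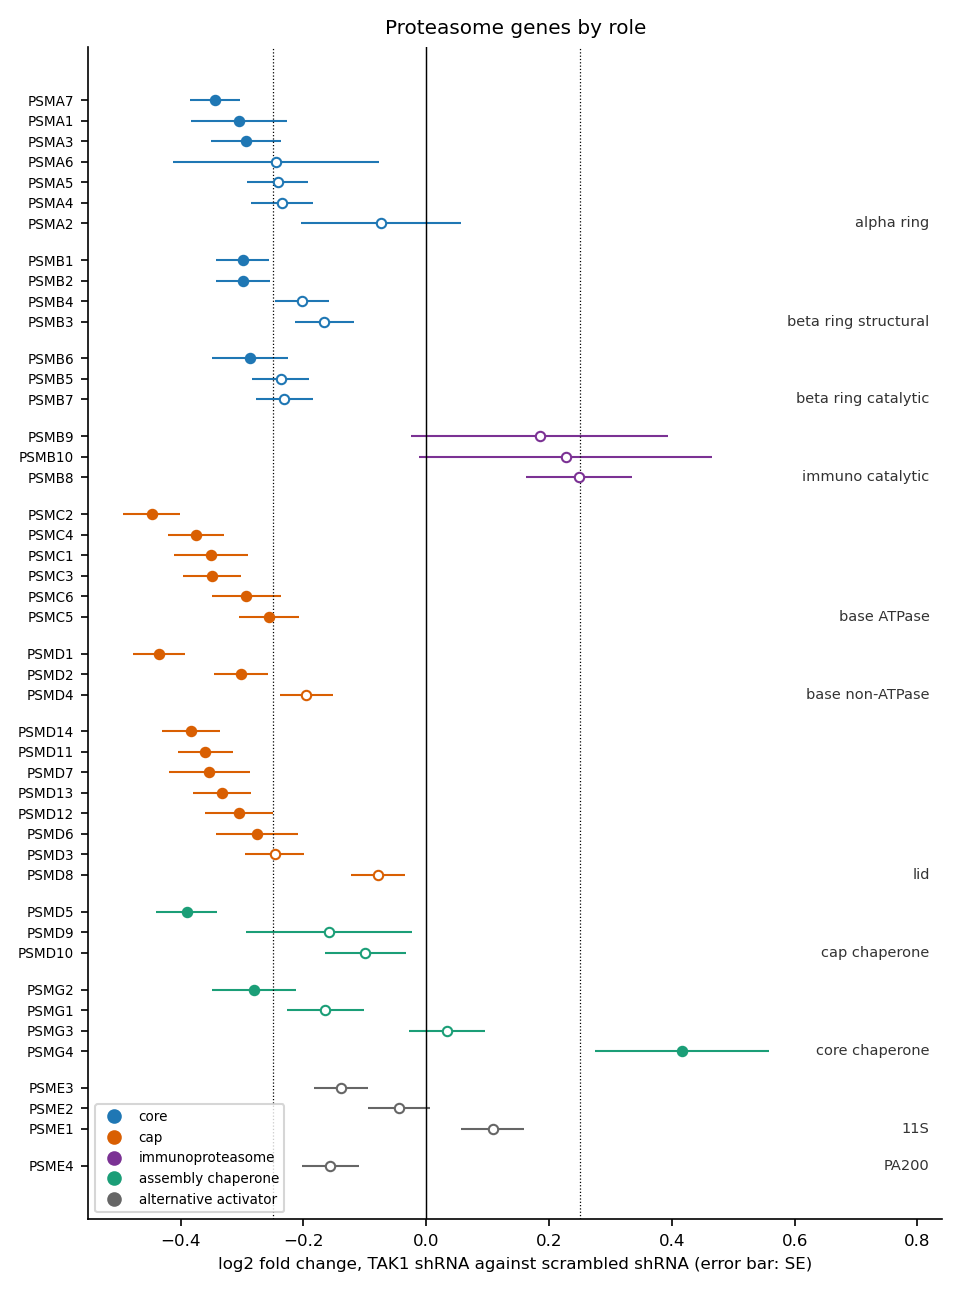
Log2 fold change of each of the 45 tested proteasome genes in TAK1 shRNA against scrambled shRNA samples (n = 3 each), grouped by role. Bars are standard errors, filled points passed the adjusted p and the fold threshold, open points did not, and dotted lines mark ±0.25. All 14 core and 17 cap genes lie left of 0, and the 3 immunoproteasome genes lie right of it.

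The distribution of fold changes differed between the classes, though the ranges of the core, the cap and the assembly chaperones overlapped. All 31 core and cap genes had a negative log2 fold change, against 47.5% of all genes and 56.7% of genes with at least 50 CPM. Their values ran from -0.45 to -0.07, so that none fell by as much as NFE2L1 or MAP3K7, and none was above 0. The remaining 14 tested members were spread over both signs. The 14 core and 17 cap genes kept a negative sign with each other scaling and test tried, and when single samples were left out the one exception was PSMA2, at 0.07 without replicate 2 of TAK1 shRNA and at 0.05 without replicate 3 of scrambled shRNA.

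**Figure D2:**
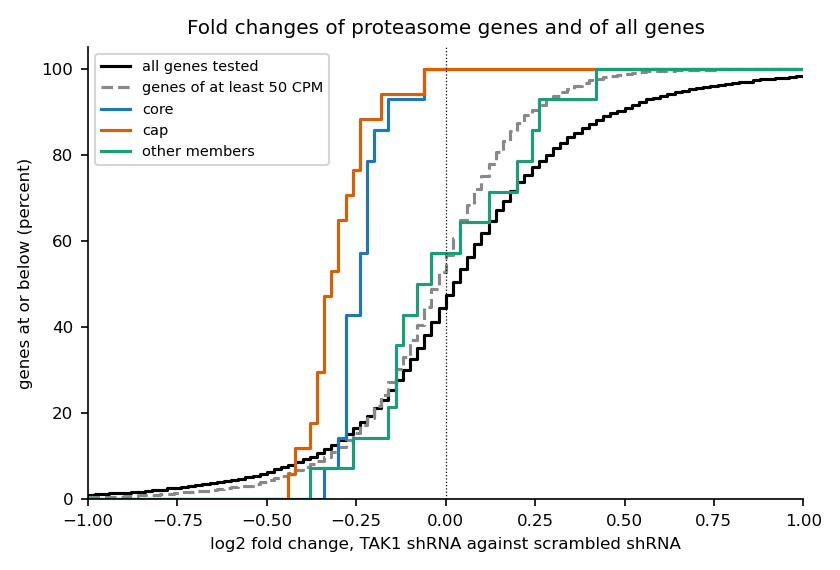
Cumulative percent of genes at or below each log2 fold change (TAK1 shRNA against scrambled shRNA) for core (n = 14), cap (n = 17) and the other 14 tested members, beside all 15935 genes and the 4787 whose mean reached 50 CPM. The core and cap curves reach 100% before 0, and the other members follow the curve of all genes more closely.

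The sequences near the start sites are shown because the core and cap genes moved together and the immunoproteasome genes did not move with them. RefSeq promoter windows (GRCh38.p14, 250 bases before to 50 after the annotated start) were held for 41 members, of which 39 were tested. The antioxidant response element, to which NFE2L1 binds, was searched as TGACNNNGC on both strands. It was present in 15 of the 39 tested members (38.5%), against 19.2% of the 10827 tested genes with a window. It occurred in 6 of the 22 downregulated members, of which PSMA7, PSMB1 and PSMB6 had no window. The 6 were PSMC4, PSMC5, PSMD1, PSMD12, PSMD5 and PSMG2, and the matches of PSMC4 and PSMD1 lie after the start. The stretches of PSMD3, PSMD5 and PSMD12 are printed as examples from the lid and from a cap chaperone, with the match in capitals. Its first base lies 37, 134 and 165 bases before the start, respectively.
PSMD3, chr17:39980730-39980806, plus strand: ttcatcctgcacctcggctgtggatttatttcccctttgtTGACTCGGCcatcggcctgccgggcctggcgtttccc
PSMD5, chr9:120843008-120843096, minus strand: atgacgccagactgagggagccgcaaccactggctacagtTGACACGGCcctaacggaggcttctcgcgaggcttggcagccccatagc
PSMD12, chr17:67366694-67366782, minus strand: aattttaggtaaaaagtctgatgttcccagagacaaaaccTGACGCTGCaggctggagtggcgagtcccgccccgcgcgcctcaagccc
Members with this motif had a median log2 fold change of -0.24 (n = 15) and members without it -0.28. Whether NFE2L1 acts at these matches was not tested. The CCAAT box (CCAAT, both strands), the site of a general promoter factor, was present in 48.7% of the tested members and 42.9% of tested genes. The cyclic AMP response element TGACGTCA, which can overlap the antioxidant element in its opening letters, was found in 0 of the 39 members and in 3.73% of tested genes.

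The interferon-stimulated response element, a site of IRF factors, was searched as GAAA, any 2 bases and GAAA, on both strands. It lay in 7 of the 39 members (17.9%), against 3.81% of tested genes. These were PSMA4, PSMB4, PSMB8, PSMB10, PSME1, PSME2 and PSMG4. Of the 7, 0 were downregulated, against 11.3% of all genes tested, and so few genes cannot tell 0 from that share. PSMA4 and PSMB4 were lower at the adjusted p alone. The median log2 fold change of the 7 was 0.11, against -0.29 in the 32 members without the motif. PSMB8, PSMB10 and PSMG4 are low-count genes, with control means of 15.3, 2.265 and 5.82 CPM, and the counts of PSMB10 are uncertain as given below. Whether the motif bears on the fold change was not tested. The 5 matches that lie wholly upstream of the start are shown with 10 bases on either side and the match in capitals.
PSMB10, chr16:67936852-67936881, minus strand: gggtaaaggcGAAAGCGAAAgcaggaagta
PSME2, chr14:24146619-24146648, minus strand: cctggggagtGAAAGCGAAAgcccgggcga
PSMG4, chr6:3258904-3258933, plus strand: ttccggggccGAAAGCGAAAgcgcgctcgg
PSMA4, chr15:78540155-78540184, plus strand: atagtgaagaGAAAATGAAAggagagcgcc
PSMB4, chr1:151399495-151399524, plus strand: tcgtctacagGAAAAAGAAAgaaatgacac
The match had the same letters in PSMB10, PSME2 and PSMG4 and differed in PSMA4 and PSMB4. A match is a description of letters, and binding at these windows was not measured.

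Of the core, the alpha ring subunits build the outer rings and the gate. PSMA7, the member with the highest level per length in control cells at 504 CPM per kb, had 485, 487 and 483 CPM with scrambled shRNA and 382, 379 and 385 CPM with TAK1 shRNA. The groups lay far apart beside the small spread within each, and the log2 fold change was -0.34 (SE 0.041, edgeR adjusted p = 3.48e-07). PSMA3 had 106, 113 and 112 CPM in controls and 82.5, 97.4 and 90.7 CPM after knockdown, with a log2 fold change of -0.29. Leaving out replicate 1 of TAK1 shRNA took it to -0.23, short of the fold threshold. PSMA1 had 24.1, 27.1 and 27.7 CPM against 20.6, 22.5 and 20.7 CPM, a log2 fold change of -0.30 with a wider standard error of 0.079. In both genes the groups did not overlap. PSMA4 and PSMA5 were lower at the adjusted p alone, at -0.23 and -0.24, and each passed the fold threshold in 3 of 14 alternative fits. PSMA4 reached it without replicate 2 or 3 of TAK1 shRNA (-0.27 in both) or replicate 1 of scrambled shRNA (-0.25), and PSMA5 without replicate 3 of TAK1 shRNA or replicate 1 of scrambled shRNA (-0.28 in both).

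The other alpha ring genes, PSMA2 and PSMA6, were read at low counts. PSMA2 had 9.21, 9.88 and 12.2 CPM in controls and 10.1, 7.96 and 11.8 CPM in knockdown cells, groups that overlapped, with a log2 fold change of -0.07 (edgeR adjusted p = 0.72). PSMA6 had 5.24, 5.43 and 3.63 CPM and 4.38, 3.57 and 4.15 CPM, which also overlapped, and its log2 fold change of -0.24 had a standard error of 0.17 (edgeR adjusted p = 0.289). Their control levels per length were 7.26 and 4.66 CPM per kb, beside 41.2 to 504 CPM per kb in PSMA3, PSMA4, PSMA5 and PSMA7. In GENCODE 44 another protein-coding gene on the same strand shares 100% of the canonical transcript of PSMA2, 81.4% of PSMA6 and 67.0% of PSMA1, which stood at 22.0 CPM per kb. Among the tested members PSMB10 (56.1%) and PSMD9 (28.8%) also shared at least 5% of their bases in this way. These 5 members had a median control level of 4.66 CPM per kb, against 85.0 CPM per kb in the 40 others. How the deposited counting treated reads in shared exons is not given in the sources used here, so the counts of these 5 genes are uncertain.

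**Figure D3:**
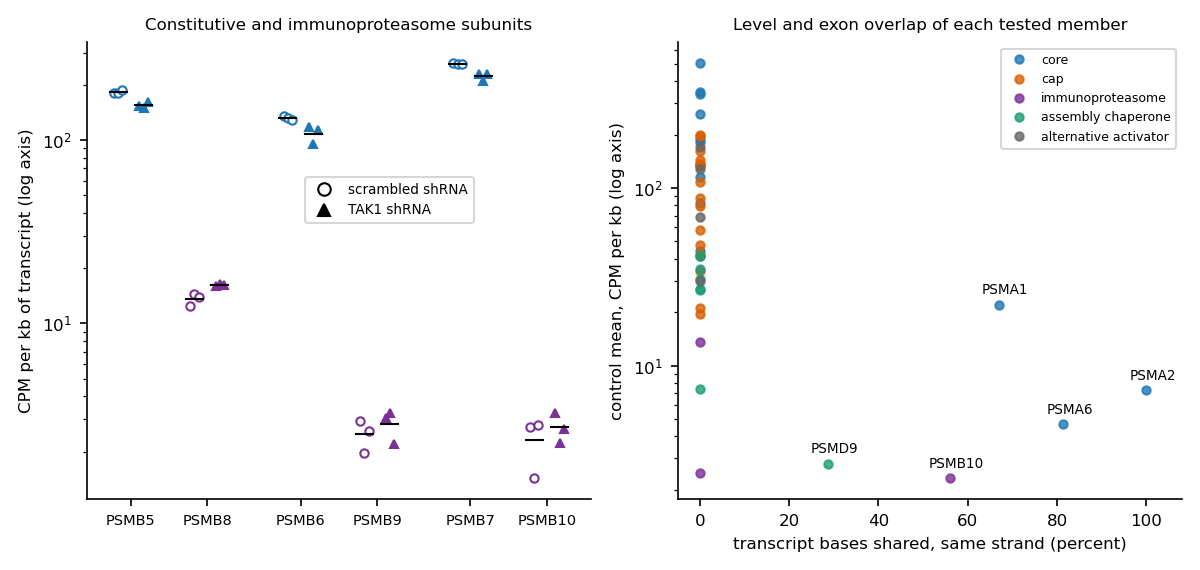
Left, CPM per kb of transcript (log axis) of the constitutive catalytic subunits PSMB5, PSMB6 and PSMB7 and the immunoproteasome subunits that replace them, with open circles for the 3 scrambled shRNA samples, triangles for the 3 TAK1 shRNA samples and lines for the means. Right, control mean in CPM per kb (log axis) of each tested member against the percent of its transcript bases shared with another gene on the same strand; the 5 members with shared bases sit between 2.32 and 22.0 CPM per kb.

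The beta ring holds 4 structural subunits, and all 4 were lower at the adjusted p. PSMB1 had 301, 304 and 303 CPM in controls and 238, 248 and 251 CPM after knockdown, a log2 fold change of -0.30 (SE 0.043). PSMB2 had 366, 361 and 361 CPM against 307, 285 and 294 CPM, a log2 fold change of -0.30 (SE 0.044). In both genes the lowest control sample lay well above the highest knockdown sample, and both were downregulated, with edgeR adjusted p-values of 6.51e-06 and 7.36e-06. PSMB4 and PSMB3 changed less, with 138, 144 and 148 CPM against 127, 126 and 130.1 CPM for PSMB3, which had the smallest log2 fold change of the 4 at -0.17. The groups of PSMB3 did not overlap, but its adjusted p was 0.0509 without replicate 2 and 0.0741 without replicate 3 of scrambled shRNA and 0.0558 with scaling by library size alone in edgeR's test.

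The 3 constitutive catalytic subunits cut after hydrophobic (PSMB5, the target of bortezomib), acidic (PSMB6) and basic residues (PSMB7). All 3 were lower at the adjusted p, by similar amounts. PSMB5 had 188, 189 and 195 CPM in controls and 159.5, 157 and 168 CPM in TAK1 knockdown cells, a log2 fold change of -0.237 (SE 0.046, edgeR adjusted p = 0.00027). PSMB6 had 112, 109 and 106 CPM and 96.8, 78.4 and 93.4 CPM, a log2 fold change of -0.287 (SE 0.062, edgeR adjusted p = 0.000723). PSMB7 had 258, 257 and 255 CPM and 224, 207 and 225 CPM, a log2 fold change of -0.231 (SE 0.046, edgeR adjusted p = 0.000323). The groups did not overlap in any of the 3, and only PSMB6 passed the fold threshold. That call rested on replicate 2 of TAK1 shRNA, the lowest of its samples, without which the log2 fold change was -0.20, whereas PSMB5 (-0.28) and PSMB7 (-0.26) passed without replicate 3 of TAK1 shRNA.

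The immunoproteasome subunits PSMB8, PSMB9 and PSMB10 replace PSMB5, PSMB6 and PSMB7, respectively, and none of the 3 was lower. PSMB8 lies beside PSMB9 in the MHC class II region of chromosome 6 (chr6:32840717-32844679 in GRCh38) and had 14.0, 16.2 and 15.7 CPM in controls and 17.9, 18.5 and 18.1 CPM in knockdown cells. Its groups did not overlap, and the log2 fold change of 0.249 lay just below the fold threshold (SE 0.086, edgeR adjusted p = 0.0282). It passed both thresholds in 7 of 14 alternative fits. The adjusted p in edgeR's test was 0.149 without replicate 1 of scrambled shRNA, and between 0.0572 and 0.0698 without replicate 3 of scrambled shRNA, replicate 2 of TAK1 shRNA or replicate 3 of TAK1 shRNA. It was 0.0582 with no low-count filter, and DESeq2 gave 0.0614. PSMB9 (chr6:32844136-32859851) had 2.99, 2.00 and 2.63 CPM and 3.11, 3.28 and 2.24 CPM, with a log2 fold change of 0.18 (SE 0.21, edgeR adjusted p = 0.545). PSMB10 had 2.673, 1.397 and 2.724 CPM and 3.18, 2.18 and 2.60 CPM, with a log2 fold change of 0.23 (SE 0.24, edgeR adjusted p = 0.51). For PSMB9 and PSMB10 the groups overlapped, and without replicate 2 of scrambled shRNA, the lowest sample of both, PSMB10 was at -0.03.

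Immunoproteasome mRNA was scarce in RD cells next to the constitutive counterparts. Per length, PSMB8 stood at 6.93%, 7.98% and 7.49% of PSMB5 in the scrambled shRNA samples and at 10.45%, 10.96% and 10.02% in the TAK1 shRNA samples. The means were 7.47% ± 0.528 and 10.5% ± 0.473 (SD, n = 3), and the samples did not overlap, with a two-sided exact permutation p of 0.1, which is the smallest that 3 against 3 allows (0.3 when adjusted over the 3 pairs). PSMB9 stood at 1.88% ± 0.354 of PSMB6 in controls and 2.65% ± 0.726 in knockdown cells (SD, n = 3, exact permutation p = 0.3). PSMB10, whose counts are uncertain as given above, stood at 0.889% ± 0.295 of PSMB7 and 1.22% ± 0.190 (SD, n = 3, exact permutation p = 0.2). In the latter pairs the samples of the groups overlapped.

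PSMA8, a core subunit of the testis, and PSMB11, of the thymus cortex, were at 0 counts in all 6 samples. A count of 0 allows up to 3 counts, or 0.0849 to 0.106 CPM depending on the depth of the sample, and such limits cover counting error only.

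The cap was lower than controls in more of its genes than any other class. At the adjusted p alone 16 of 17 were lower (94.1%, against 17.2% of all genes), and 14 were downregulated (82.4%, against 11.3%). The base of the cap holds a ring of 6 ATPases that unfold the substrate and thread it into the core, and all 6 were downregulated. PSMC2, on chromosome 7 (chr7:103328570-103370346), had 216, 217 and 209.7 CPM in controls and 151, 162 and 159 CPM in TAK1 knockdown cells. This was the most negative log2 fold change of the members, -0.45 (SE 0.046, edgeR adjusted p = 3.79e-08), a level 26.6% lower. PSMC4 had 253, 258 and 244 CPM against 196, 188 and 197 CPM, a log2 fold change of -0.38 (SE 0.045). PSMC3 had 213, 204 and 203 CPM against 156, 163 and 168 CPM, a log2 fold change of -0.35 (SE 0.047). In these 3 genes the spread between replicates was small beside the gap between the groups, and no knockdown sample came near a control sample.

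PSMC1 had 81.9, 83.0 and 91.0 CPM in controls and 63.0, 65.2 and 72.4 CPM in knockdown cells, a log2 fold change of -0.35 (SE 0.060). PSMC6 had 102, 104 and 105 CPM and 77.3, 91.1 and 85.9 CPM, a log2 fold change of -0.29 (SE 0.057). PSMC5 had 118, 114 and 119.5 CPM and 98.5, 95.2 and 101 CPM, the smallest difference of the ATPases at -0.26 (SE 0.049). The groups were separate in each, with edgeR adjusted p-values of 5.55e-05, 0.000224 and 0.000221. PSMC6 missed the fold threshold without replicate 1 of TAK1 shRNA (-0.23), and PSMC5 without replicate 2 of TAK1 shRNA (-0.23) or replicate 3 of scrambled shRNA (-0.24). The transcript of PSMC1 overlaps that of NRDE2 on the opposite strand over 83.2% of its bases and that of PSMC5 overlaps FTSJ3 over 13.7%, and whether the counting used strand is not given in the sources used here.

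The other base subunits are the large scaffolds PSMD1 and PSMD2 and the ubiquitin receptor PSMD4. PSMD1, on chromosome 2 (chr2:231056845-231173116), had 463, 446 and 445 CPM in controls and 326, 332 and 343 CPM in TAK1 knockdown cells. The gap between the groups was several times the spread within them, and the log2 fold change was -0.43 (SE 0.043, edgeR adjusted p = 1.66e-08). PSMD2 had 482, 465 and 468 CPM and 387, 364 and 397 CPM, a log2 fold change of -0.30 (SE 0.044, edgeR adjusted p = 7.34e-06). PSMD4 had 255, 259.9 and 262 CPM and 227, 222 and 229 CPM, groups that did not overlap, and was lower at the adjusted p alone with a log2 fold change of -0.20 (SE 0.043, edgeR adjusted p = 0.00102).

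The lid removes the ubiquitin chain. Its protease PSMD14 had 217, 212 and 213 CPM with scrambled shRNA and 155, 163 and 174 CPM with TAK1 shRNA, a log2 fold change of -0.38 (SE 0.048, edgeR adjusted p = 7.5e-07). PSMD7, the inactive partner of that protease, had 53.1, 55.1 and 59.4 CPM and 39.9, 45.5 and 45.5 CPM, a log2 fold change of -0.35 (SE 0.066). Both fell by a like amount, and their groups did not overlap. A lncRNA on the opposite strand overlaps 51.6% of the transcript of PSMD7. PSMD11, which clamps the lid to the core, had 229, 222 and 221 CPM and 178, 172 and 173 CPM, a log2 fold change of -0.36 (SE 0.045). PSMD13 had 170.4, 172 and 173 CPM and 130.5, 140.4 and 138 CPM, a log2 fold change of -0.33 (SE 0.047). In both structural subunits the knockdown samples formed a tight group well below the controls. PSMD12 had 92.9, 89.5 and 94.5 CPM and 69.7, 75.9 and 78.4 CPM (-0.30, SE 0.055). PSMD6 had 54.5, 58.2 and 57.7 CPM and 41.8, 50.3 and 48.6 CPM (-0.28, SE 0.067), and missed the fold threshold without replicate 1 of TAK1 shRNA, at -0.20. These 6 lid genes were downregulated, with edgeR adjusted p-values from 6.41e-07 to 0.00232.

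Lid genes outside the call were PSMD3 and PSMD8. PSMD3, a structural subunit, had 301, 281 and 283 CPM and 257, 236 and 235 CPM with no overlap, and its log2 fold change of -0.247 was, among the genes that were lower, the closest to the fold threshold from outside (SE 0.048, edgeR adjusted p = 0.000224). It passed in 6 of 14 alternative fits, among them those without replicate 1 of TAK1 shRNA (-0.29), replicate 2 (-0.27) or replicate 3 (-0.26) of scrambled shRNA. From inside, the closest members were PSMC5 at -0.256 and PSMD6 at -0.275. PSMD8, the last subunit to join the lid, was the cap gene that did not pass the test. It had 308, 304 and 292 CPM in controls and 280.3, 294 and 281 CPM in knockdown cells, where replicate 2 overlapped the controls, with a log2 fold change of -0.08 (SE 0.044, edgeR adjusted p = 0.191).

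Set side by side, the cap had a median log2 fold change of -0.33 (17 genes, 20.6% lower) and the core of -0.24 (14 genes, 15.5% lower). Within the cap the medians were -0.35 in the 6 ATPases, -0.30 in the 3 other base genes and -0.32 in the 8 lid genes, and within the core they were -0.24 in the alpha ring, -0.25 in the structural and -0.24 in the catalytic beta subunits. With each gene set to its control mean, the median core gene stood at 84.2%, 82.2% and 87.1% in TAK1 shRNA replicates 1, 2 and 3. The median cap gene stood at 75.5%, 81.2% and 81.6% in the same samples, below the core in each. In controls these medians were between 99.0% and 100.7% in both classes. The share called downregulated was 42.9% in the core and 82.4% in the cap, against 11.3% of all genes. The core count moved with single samples, since 10 core genes passed without replicate 3 of TAK1 shRNA, against 14 in the cap. With library size alone, 3 core and 11 cap genes passed, and PSMA3, PSMB2, PSMB6, PSMC5, PSMC6 and PSMD6 fell short of the fold threshold. The counts at the adjusted p alone, 12 of 14 and 16 of 17 (against 17.2% of all genes), stayed at 11 to 12 and at 16 over the 14 alternative fits. Without the 3 core genes that share exon bases on the same strand, 27 of 28 core and cap genes were lower at the adjusted p.

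**Figure D4:**
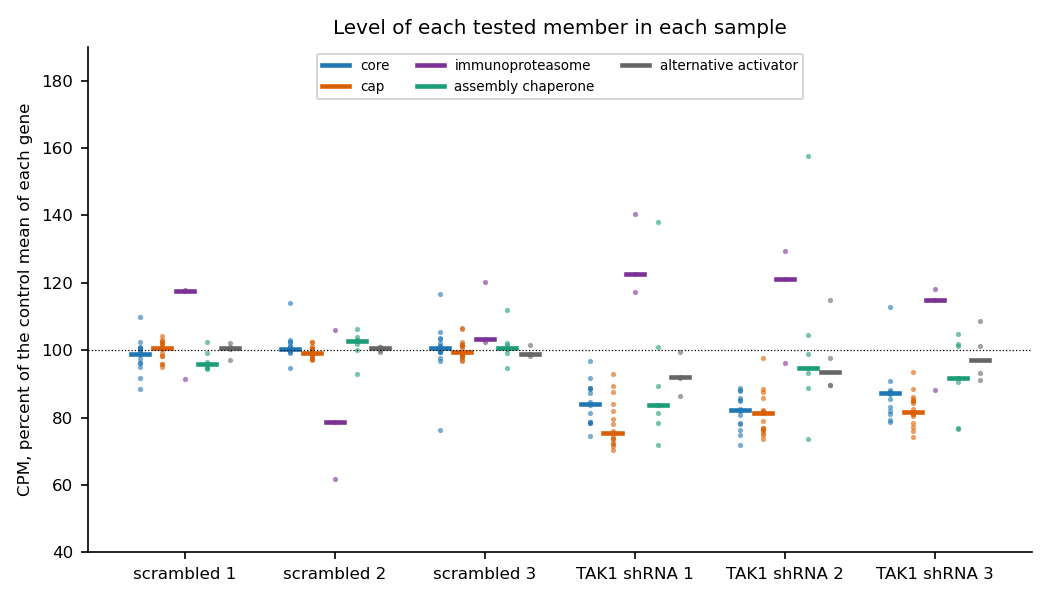
Level of each tested member in each of the 6 samples as a percent of its own mean in the scrambled shRNA samples, with points for genes and bars for the class median. The cap bars of the 3 TAK1 shRNA samples lie at 75.5%, 81.2% and 81.6% and the core bars at 84.2%, 82.2% and 87.1%, while the immunoproteasome bars of the groups overlap, at 117.7%, 78.8% and 103.5% in controls and 122.6%, 121.1% and 115.0% with TAK1 shRNA.

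The assembly chaperones, which leave before the complex is complete, did not move as a group. Of the 7 genes, 2 were downregulated (28.6%, against 11.3% of all genes) and 1 was upregulated (14.3%, against 11.8%). At the adjusted p alone 3 were lower (42.9%, against 17.2%), and the median log2 fold change was -0.16. PSMD5, which holds the base until it meets the core, had 116, 118 and 118 CPM in controls and 92.3, 86.7 and 90.4 CPM in knockdown cells. Its samples were tight and far apart, and its log2 fold change of -0.39 (SE 0.049, edgeR adjusted p = 8.31e-07) was within the range of the cap. PSMD10 (gankyrin), another chaperone of the base, had 37.8, 41.0 and 39.6 CPM and 35.3, 39.0 and 36.2 CPM, which overlapped, with a log2 fold change of -0.10 (edgeR adjusted p = 0.273). PSMD9, whose counts are uncertain as given above, was at -0.16 (edgeR adjusted p = 0.409).

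The core chaperones work as the pairs PSMG1 with PSMG2 and PSMG3 with PSMG4 on the alpha ring. PSMG2 had 45.6, 45.8 and 42.2 CPM in controls and 36.3, 39.5 and 34.1 CPM in knockdown cells, a log2 fold change of -0.28 (SE 0.068, edgeR adjusted p = 0.00232), and -0.24 without replicate 3 of TAK1 shRNA. PSMG1 was lower at the adjusted p alone (-0.16, edgeR adjusted p = 0.0486), a call that was lost when any sample other than replicate 2 of TAK1 shRNA was left out (-0.12 to -0.19). It was also lost with library size (edgeR adjusted p = 0.175), upper quartile (0.0793) and both other low-count filters (0.0506 and 0.0648). PSMG3 had 41.5, 45.1 and 44.7 CPM and 44.1, 45.8 and 44.5 CPM, overlapping groups with a log2 fold change of 0.03 (edgeR adjusted p = 0.726). PSMG4, on chromosome 6 (chr6:3231403-3303373), had 5.49, 6.19 and 5.77 CPM in controls and 8.04, 9.17 and 6.09 CPM in knockdown cells, a log2 fold change of 0.42 (SE 0.14, edgeR adjusted p = 0.0249). It was the upregulated member, yet its groups overlapped and its call was the least stable, since it was lost with DESeq2 (0.41, adjusted p = 0.0594) and without replicate 1 (0.39) or 2 (0.27) of TAK1 shRNA or replicate 1 (0.38) or 3 (0.41) of scrambled shRNA.

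The alternative activators open the core in place of the cap. The interferon-induced pair PSME1 and PSME2 did not pass the test in the main fit. PSME1 had 159.8, 166 and 167 CPM in controls and 164, 189 and 179 CPM in knockdown cells, a log2 fold change of 0.11 (SE 0.051, edgeR adjusted p = 0.115). It was higher at the adjusted p alone with library size, with the replicate block and without replicate 1 of TAK1 shRNA. PSME2 had 101, 102 and 99.7 CPM and 92.9, 98.5 and 102 CPM, a log2 fold change of -0.04 (SE 0.051, edgeR adjusted p = 0.558) whose sign turned to 0.004 with scaling by library size alone. In both the samples of the groups overlapped. The nuclear activators were lower at the adjusted p alone, with no overlap between groups. PSME3 had 220.5, 219 and 216 CPM and 200.4, 196 and 199 CPM, a log2 fold change of -0.14 (SE 0.044, edgeR adjusted p = 0.0159). PSME4, a single large protein linked to acetylated histones and DNA repair, had 221, 215 and 213 CPM and 187, 194 and 201 CPM, a log2 fold change of -0.16 (SE 0.046, edgeR adjusted p = 0.01). These calls were lost without replicate 1 of scrambled shRNA (edgeR adjusted p = 0.0606 for PSME3 and 0.0535 for PSME4) and with scaling by library size alone (0.0973 and 0.0612), and for PSME3 also without replicate 2 of scrambled shRNA (0.0754).

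Proteins that work with the complex under other symbols were read from the same fit, in lists chosen with earlier results of these data known. Of 12 such partners, 4 were downregulated (33.3%, against 11.3% of all genes), 0 were upregulated (against 11.8%) and 7 were lower at the adjusted p with no fold threshold (58.3%, against 17.2%), with a median log2 fold change of -0.16. The ubiquitin receptor of the cap, ADRM1, had 134, 128 and 126 CPM in controls and 106, 94.4 and 98.7 CPM after knockdown, a log2 fold change of -0.37 (SE 0.052). UCHL5, the deubiquitinase that ADRM1 brings to the cap, had 79.1, 75.5 and 81.7 CPM and 60.8, 60.8 and 62.8 CPM, a log2 fold change of -0.36 (SE 0.054). Both lay within the range of the cap genes. POMP, the chaperone that matures the beta ring, had 57.8, 59.7 and 58.9 CPM and 44.9, 45.1 and 51.3 CPM, a log2 fold change of -0.32 (SE 0.063). The small lid subunit SEM1 had 76.8, 79.8 and 80.0 CPM and 67.0, 60.8 and 68.1 CPM (-0.27, SE 0.056), and missed the fold threshold without replicate 2 of TAK1 shRNA or with library size, at -0.23 in both. The 4 had edgeR adjusted p-values from 4.69e-06 to 0.000481, and no sample of one group overlapped the other. The proteasome inhibitor PSMF1 had 86.8, 83.0 and 80.0 CPM and 87.8, 84.1 and 85.7 CPM, overlapping groups with a log2 fold change of 0.04 (edgeR adjusted p = 0.562).

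The gene for the activator of the subunit genes, NFE2L1, fell further than any subunit. On chromosome 17 (chr17:48048329-48061545), it had 322, 308 and 308 CPM in controls and 167, 165 and 177 CPM in TAK1 knockdown cells. The means were 312 ± 8.17 CPM and 169.6 ± 6.20 CPM (SD, n = 3), a level 45.7% lower, and the log2 fold change was -0.88 (SE 0.046, edgeR adjusted p = 2.32e-13). The related factor NFE2L2, known for the response to oxidative stress, had 81.1, 78.0 and 80.1 CPM and 69.8, 74.3 and 73.5 CPM with a log2 fold change of -0.14 (edgeR adjusted p = 0.0484). That call was lost with library size (edgeR adjusted p = 0.204), upper quartile (0.0822) or no low-count filter (0.0744), and without replicate 1 of TAK1 shRNA (0.113) or any one scrambled shRNA sample (0.0938 to 0.148). Of the 9 regulators in the list, 2 were downregulated (22.2%, against 11.3% of all genes) and 1 was upregulated (11.1%, against 11.8%). Their median log2 fold change was -0.06. BTRC, an F-box protein that marks NFE2L1 for degradation, was also downregulated at -0.28 (edgeR adjusted p = 0.00063). FBXW7, another F-box protein that does so, was upregulated at 0.26 (edgeR adjusted p = 0.0138). Both values lie close to the fold threshold. BTRC was at -0.24 without replicate 2 of TAK1 shRNA and at -0.23 with library size, and FBXW7 was at 0.20 and 0.23 without replicates 2 and 3 of TAK1 shRNA and at 0.22 without replicate 2 of scrambled shRNA, and fell just short of the threshold with DESeq2 (0.246), DESeq2 size factors (0.249) or no low-count filter (0.248). The genes for the protease DDI2 and the glycanase NGLY1, which process the NFE2L1 protein, stood at 0.12 and -0.06 and did not pass the test (edgeR adjusted p = 0.233 and 0.624). Levels of the NFE2L1 protein and its processed form were not measured in these files.

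**Figure D5:**
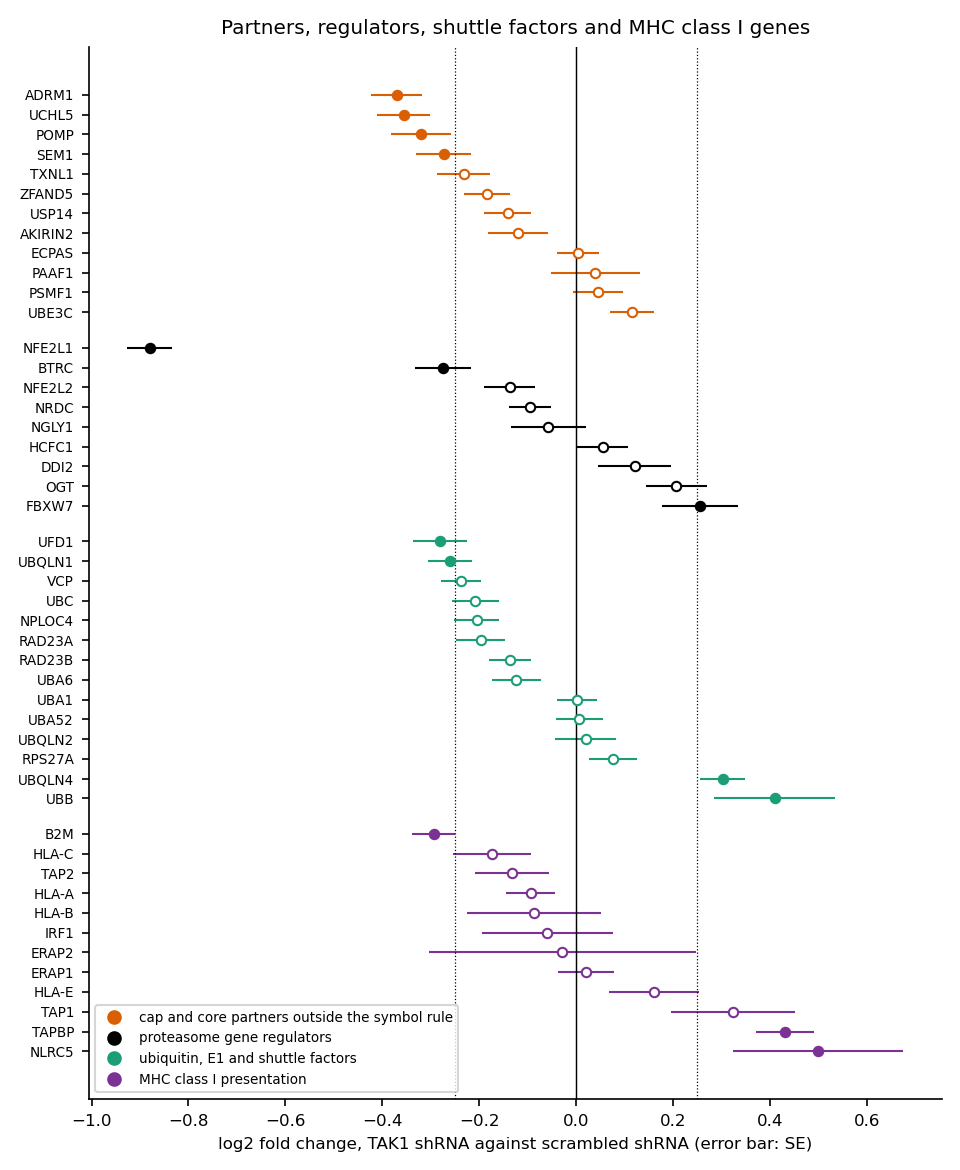
Log2 fold change (TAK1 shRNA against scrambled shRNA, n = 3 each) of 47 tested genes in 4 lists of genes that work with the proteasome. Bars are standard errors, filled points passed the adjusted p and the fold threshold and dotted lines mark ±0.25. NFE2L1, at -0.88, stands apart from the other genes, which lie between -0.37 and 0.50.

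Genes that supply ubiquitin and carry substrates to the cap passed both thresholds at shares near those of all genes. Of 14, 2 were downregulated and 2 upregulated (14.3% each, against 11.3% and 11.8% of all genes), 7 (50%) were lower at the adjusted p with no fold threshold, against 17.2%, and the median log2 fold change was -0.13. UFD1, which with VCP pulls ubiquitin-marked proteins out of membranes and complexes, had 68.1, 69.9 and 71.1 CPM and 57.0, 60.1 and 55.0 CPM, a log2 fold change of -0.28 (edgeR adjusted p = 0.00035), and -0.23 with library size. The shuttle factor UBQLN1 had 189, 192 and 186 CPM and 156, 154 and 163 CPM, a log2 fold change of -0.26 (edgeR adjusted p = 8.48e-05) that became -0.24 without replicate 2 of TAK1 shRNA and -0.248 without replicate 2 of scrambled shRNA, and -0.21 with library size and -0.24 with upper quartile. Its relative UBQLN4 had 150.2, 144 and 143 CPM and 184, 179.8 and 176 CPM and was upregulated at 0.30 (edgeR adjusted p = 1.28e-05). The groups of these 3 genes did not overlap. The polyubiquitin gene UBB, which responds to stress, had 178, 315 and 185 CPM and 323, 263 and 315 CPM, a log2 fold change of 0.41 (SE 0.12, edgeR adjusted p = 0.0125). Its control replicate 2 lay among the knockdown samples, and the call was lost with DESeq2 (adjusted p = 0.318), without replicate 3 of TAK1 shRNA (0.36) and without replicate 1 (0.26) or 3 (0.28) of scrambled shRNA.

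MHC class I genes, which present the peptides that the proteasome makes, had 1 downregulated (8.33%) and 2 upregulated genes (16.7%) among 12 tested, shares near the 11.3% and 11.8% of all genes, with a median log2 fold change of -0.04. The light chain gene B2M had 337, 357 and 366 CPM in controls and 286, 286 and 292 CPM in knockdown cells, a log2 fold change of -0.29 (edgeR adjusted p = 1.15e-05), and -0.246 with library size. TAPBP, which loads peptide, had 65.1, 66.4 and 66.2 CPM and 97.6, 85.9 and 83.1 CPM, a log2 fold change of 0.43 (edgeR adjusted p = 2.86e-06). Both groups of samples were separate in these genes, in opposite directions. NLRC5, the transactivator of the class I genes, had 2.60, 3.33 and 2.92 CPM and 3.52, 4.25 and 4.76 CPM, a log2 fold change of 0.50 (SE 0.18, edgeR adjusted p = 0.0297). It is a low-count gene whose call was lost with DESeq2 (adjusted p = 0.0754) and without replicate 2 (0.49) or 3 (0.39) of TAK1 shRNA or replicate 1 (0.42) or 3 (0.49) of scrambled shRNA. IRF1, a transcription factor of the interferon response, stood at -0.06 and did not pass the test (edgeR adjusted p = 0.783).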

How the data were processed

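The authors sequenced poly(A) mRNA as paired reads, removed adaptor-containing and low-quality reads, aligned the rest to GRCh38 with STAR and deposited raw read counts per gene without normalization. The counter, its annotation and its use of strand are not given in the sources used here. Samples were grouped by their labels. Counts were compared with edgeR 4.0.16 (R 4.3.3): default expression filter, trimmed mean of M-values, quasi-likelihood test without a replicate term, Benjamini-Hochberg adjustment over 15935 genes. A standard error (SE) is the ratio of the log2 fold change to the root of its F. On simulated data with 200 changed genes among 15887, this fit recovered 199 with 8 false calls. Recovery at fold changes as small as those of the proteasome genes was not tested separately. DESeq2 1.42.0, limma 3.58.1 (voom), 3 other scalings, 2 other filters, a replicate block and leaving out each sample were the alternatives. Samples with the same replicate number showed little shared deviation (correlations 0.016 to 0.037), so no pairing was assumed. The labels do not say whether replicates were paired. Replicates differed beyond sampling noise (chi-square per degree of freedom 2.88 to 8.60). CPM per kb divides CPM by the GENCODE 44 canonical transcript length. Promoters came from RefSeq. Members and lists were chosen with earlier results of these data known. Given in every sample were downregulated and upregulated members, the immunoproteasome subunits with their counterparts, the activators, the extremes of each subclass, PSMA8 and PSMB11, and of other lists the genes past both thresholds with NFE2L2 and PSMF1. A gene of the MHC class I list is not reported here.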

Additional observations from a re-analysis of the deposited data

How the results depend on the processing

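Among the 22 downregulated members, 15 passed both thresholds in all 14 alternative fits, and PSMA3, PSMB2, PSMB6, PSMC5, PSMC6, PSMD6 and PSMG2 fell short in 1 or more. The number downregulated was 15 with library-size scaling, which shifts all genes by 0.05 on the log2 scale, 21 to 24 under the other normalizations, filters and tests, 22 with the replicate block, and 20 to 25 with a sample left out. At a fold threshold of 0.5 it was 0. The replicate block changed the call of 1 member, PSMB8, to higher. Upregulated members numbered 1, but 0 with DESeq2 or at a fold of 0.5, and 2 with the filter of 10 counts in every sample, library size, voom, the replicate block, upper quartile or the adjusted p alone (0 to 2 leaving out samples). At the adjusted p alone, 2 were higher, but 3 with library size or the replicate block. The number was 0 with DESeq2, 1 without the low-count filter and 0 to 2 leaving out samples.

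Over all genes, 680 were lower and 735 higher at a fold of 0.5, and 2734 were lower at the adjusted p alone. The 9 partner and pathway genes called lower became 4 with library size, 1 at a fold of 0.5 and 18 at the adjusted p alone. The 5 called higher became 7 with library size and 6 with upper quartile, the replicate block or the adjusted p alone. They became 4 with DESeq2 size factors or no low-count filter, 2 with DESeq2, 1 at a fold of 0.5 and 3 to 5 leaving out samples. With library size the medians were -0.195 in the core, -0.283 in the cap and -0.043 in the activators. Leaving out samples, the core median ran from -0.277 to -0.233 and that of the chaperones from -0.200 to -0.071. Signs reversed for PSMA2 (-0.225 to 0.068 leaving out samples), PSMB10 (-0.031 to 0.386), PSMG3 (-0.004 to 0.056) and, with library size, PSME2 (0.004). The cause of these shifts was not tested. Depth limits the genes of few counts, with standard errors of 0.13 to 0.24 for PSMA2, PSMA6, PSMB9, PSMB10, PSMD9 and PSMG4.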
